A study of Mus musculus with 4 samples.

Results

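The genes described here are the ligands and receptor tyrosine kinases of the vascular endothelial growth factor (VEGF) family: the ligand genes Vegfa, Vegfb, Vegfc and Pgf and the receptor genes Kdr, Flt1 and Flt4. They were chosen by symbol, by a rule that uses no measured value, though with earlier results of these data known, and are 7 of the 27179 genes in the count table. Of these, 6 passed the filter on low counts and were tested among 13897 genes. The cells were mAEC, a line of murine aortic endothelial cells, and RNA sequencing compared 2 control libraries, from cells in normal medium, with 2 libraries from cells given conditioned medium, the supernatant of TNFα+CD68+ macrophages (TNFα is a cytokine of inflammation and CD68 marks macrophages). The series calls the libraries of a group biological replicates. Whether they came from separate cultures, how long the medium was applied and in what dilution, and whether the groups were handled in a single batch are not stated in the labels. The p-values therefore measure the spread between these libraries, which may be technical, and a batch that follows the groups cannot be told apart from the medium.

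VEGF-A is the ligand through which most endothelial growth, survival and permeability signals of this family pass, and its signalling receptor is KDR, also called VEGFR2. FLT1 (VEGFR1) binds VEGF-A tightly but signals weakly, and a soluble splice form of it acts as a trap for the ligand; VEGF-B and placental growth factor, the product of Pgf, bind FLT1 and not KDR. VEGF-C binds FLT4 (VEGFR3), the receptor best known from lymphatic endothelium, and after processing also KDR. Counts per gene join the splice forms, so membrane-bound and soluble FLT1, and the forms of VEGF-A that differ in binding to matrix, were not separated.

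In conditioned medium Vegfa rose 1.50-fold, Flt1 1.30-fold and Vegfb 1.20-fold, while Pgf and Kdr fell by 1.13-fold and 1.11-fold. Flt4 had a fold of 1.03 and was not called, and Vegfc had 0 counts in all 4 libraries. Of the 6 members tested, 3 were called higher and 2 lower, at an adjusted p under 0.05 by edgeR's quasi-likelihood test. Of all genes tested 16.8% were called, 8.53% higher and 8.23% lower. The calls of Vegfa and Flt1 held in all 14 alternative analyses, whereas those of Vegfb, Pgf and Kdr did not.

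The library totals ran from 13815695 to 18005840 counts. Endothelial identity was checked on 13 markers, of which 12 were tested, among them Cdh5 and Pecam1, the junction genes VE-cadherin and CD31, at 1893 to 2012 and 2384 to 2443 CPM (normalised counts, scaled to library size). Of these markers 2 were called higher, Eng (log2 fold change 0.32; edgeR adjusted p = 1.11e-04) and Egfl7 (0.21; 0.00226), and 2 lower, Robo4 (-0.35; 7.28e-05) and Emcn (-0.13; 0.0298). Over all genes tested 16.8% were called, 8.53% higher and 8.23% lower. The calls of Eng, Egfl7, Robo4 and Emcn, and of Notch3 and Pdgfra below, were not read in the alternatives. Vwf, the gene of von Willebrand factor, was at 2.30 to 3.49 CPM. Cldn5, a tight junction gene of endothelium, had 1 count in all. Of 10 macrophage markers 3 were tested, Cd68 (edgeR adjusted p = 0.429), Cd14 (0.907) and Lyz2 (0.990). Cd68 stood at 219.9 to 248.9 CPM in all 4 libraries, controls included, while Adgre1, C1qa and Tyrobp were at 0 and Ptprc had 1 count. Of 6 lymphatic markers, Lyve1 was at 1995 to 2051 CPM and Prox1, the defining lymphatic factor, had 2 counts in all. The summed level of 8 smooth muscle and pericyte markers was 13.6 to 14.0 CPM in control and 17.0 to 19.6 CPM in conditioned medium, with 3 tested, Notch3 called higher and Rgs5 at 0. For 7 fibroblast markers it was 26.5 to 28.9 and 33.2 to 33.6 CPM, with 2 tested, Pdgfra called higher and Col1a2, Lum and Thy1 at 0. Single genes made up much of these rises. Notch3 went from 4.67 and 4.31 to 7.43 and 8.65 CPM, and Pdgfra from 25.3 and 27.0 to 31.5 and 32.0 CPM. The other tested markers of these sets, Pdgfrb, Des and Fap, were not called. The part of such cells in the results below was not tested, and in bulk RNA fewer cells of a type and less RNA per cell cannot be told apart.

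The promoters of Flt1, Kdr and Vegfa are shown because Flt1 and Kdr, on the same chromosome and bound by the same ligand, moved in opposite directions. Each is the 250 bases before a RefSeq start site (GRCm38.p6, the build called mm10), read 5′ to 3′ on the strand of the gene. For Flt1 and Kdr this start lies within the RefSeq span of the gene, whose 5′ end is further upstream, at 147726438 and 75979072. The Kdr window shares 3 bases with an annotated exon of Kdr, and that of Flt1 shares none. Capitals mark TATAAA, the TATA box; GGGCGG, the GC box bound by SP1; and ACGTG or GCGTG, the core bound by hypoxia-inducible factors (HIF), each on either strand.
Flt1 (chr5:147726012-147726261, minus strand): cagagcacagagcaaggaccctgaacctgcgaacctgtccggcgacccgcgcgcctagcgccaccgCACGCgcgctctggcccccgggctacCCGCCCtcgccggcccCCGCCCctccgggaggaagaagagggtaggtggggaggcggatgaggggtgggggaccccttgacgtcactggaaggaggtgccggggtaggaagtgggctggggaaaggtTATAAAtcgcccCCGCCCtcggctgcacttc
Kdr (chr5:75978456-75978705, minus strand): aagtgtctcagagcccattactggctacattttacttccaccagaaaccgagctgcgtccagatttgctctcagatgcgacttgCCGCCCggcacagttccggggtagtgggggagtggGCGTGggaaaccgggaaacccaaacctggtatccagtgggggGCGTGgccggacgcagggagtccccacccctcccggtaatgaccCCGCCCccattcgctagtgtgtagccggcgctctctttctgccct
Vegfa (chr17:46032378-46032627, minus strand): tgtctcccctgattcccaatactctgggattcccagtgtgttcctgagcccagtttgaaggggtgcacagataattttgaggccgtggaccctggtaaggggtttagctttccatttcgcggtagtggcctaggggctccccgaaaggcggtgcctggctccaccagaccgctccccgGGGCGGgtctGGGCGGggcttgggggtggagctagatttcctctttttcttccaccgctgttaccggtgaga
The Flt1 window held TATAAA at 31 bases before the start, 3 GC boxes and 1 HIF core. The Kdr window held no TATAAA, 2 GC boxes and 2 HIF cores, at 131 and 89 bases before the start. The Vegfa window shown held 2 GC boxes, at 72 and 62 bases, and no HIF core. RefSeq has a second Vegfa start site, whose window (chr17:46025164-46025413) overlaps an annotated exon of Vegfa and held 1 GC box and 2 HIF cores, at 218 and 211 bases. Among 32851 RefSeq promoters of this length, TATAAA was found in 12.4%, a GC box in 32.7% and a HIF core in 38.6%. GGAA, the core bound by ETS factors, occurred 4 times in the Flt1 window, 4 times in that of Kdr and 6 and 2 times in those of Vegfa, and in 93.4% of all promoters at least once. These matches are letters in a window and say nothing of whether a factor was bound.

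Among the ligands, Vegfa changed most. Its 4 libraries read 553 and 476 counts in control and 720 and 956 in conditioned medium, or 37.5 and 32.6 CPM against 51.9 and 53.0 CPM after scaling. The groups did not overlap, as in 57.2% of all genes tested (28.5% higher and 28.8% lower), and the control libraries differed more from each other than the treated ones. The log2 fold change was 0.58 ± 0.07 (SE; 95% interval 0.43 to 0.73; edgeR adjusted p = 8.99e-06), larger in size than that of 95.3% of the genes tested. Leaving out 1 library at a time gave 0.49 to 0.69.

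Vegfb, whose product binds FLT1 and is tied to lipid handling and coronary vessels, read 41.7 and 43.0 CPM in control and 47.9 and 53.2 CPM in conditioned medium. Both treated libraries were above both controls, and they differed from each other by more than the controls did. The log2 fold change was 0.26 ± 0.07 (95% interval 0.12 to 0.40; edgeR adjusted p = 0.0112). The call was lost without conditioned medium replicate 2, where the log2 fold change was 0.18 (edgeR adjusted p = 0.303, the highest of its alternatives, which began at 0.00217), and in DESeq2 (adjusted p = 0.157).

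Pgf, the most abundant ligand transcript, read 231 and 229.8 CPM in control and 205 and 202 CPM in conditioned medium. The libraries of a group lay close together and the groups were apart. The log2 fold change was -0.18 ± 0.04 (95% interval -0.27 to -0.09; edgeR adjusted p = 0.00653). The call was lost without either conditioned medium library (edgeR adjusted p = 0.121 without replicate 1 and 0.192 without replicate 2, the highest of its alternatives, which reached down to 2.84e-04) and in DESeq2 (adjusted p = 0.0514), while the log2 fold change stayed between -0.19 and -0.16.

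Vegfc was not detected. A count of 0 allows up to 3 counts per library, which equals 0.166 to 0.216 CPM, and this limit covers counting error only. Vegfd, the other ligand of FLT4, is not among the 7 genes. It had 7 and 12 counts in control and 10 and 7 in conditioned medium, with overlapping groups. Its log2 fold change, -0.27 ± 0.51 (edgeR adjusted p = 0.774), turned to 0.17 without control replicate 2 and to 0.16 without conditioned medium replicate 2. Transcripts of the ligands known for FLT4 were therefore at or near the detection limit in both groups.

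**Figure D1:**
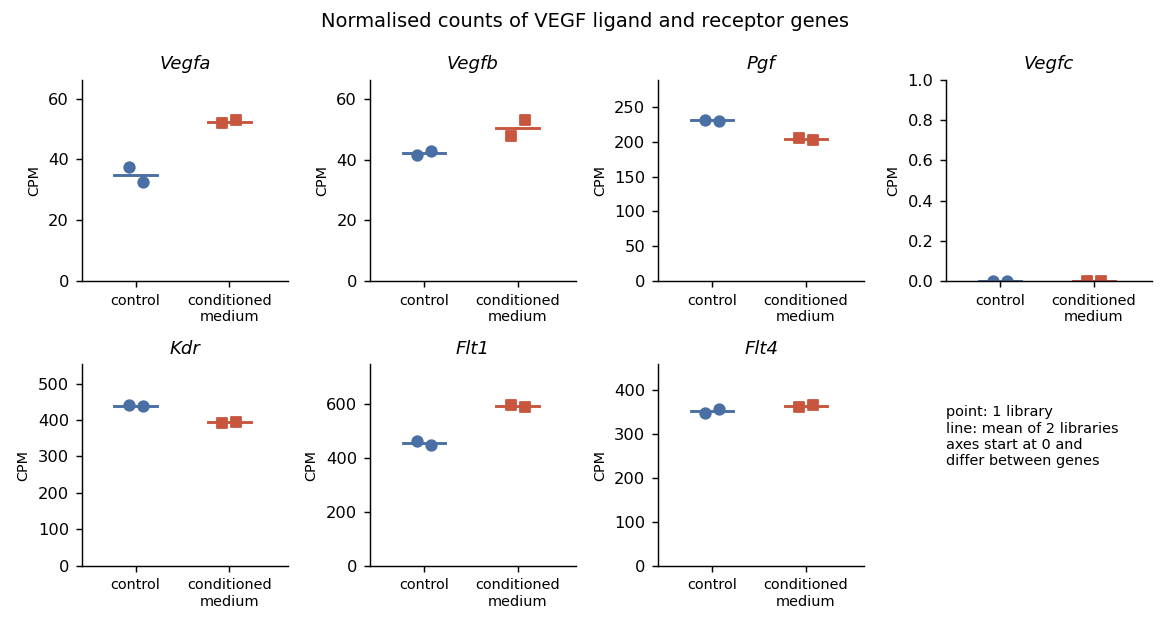
Normalised counts (CPM, vertical axes starting at 0 and differing between genes) of the 7 genes in 2 control libraries (circles) and 2 conditioned medium libraries (squares), with lines at the group means. Vegfa, Vegfb and Flt1 are higher and Pgf and Kdr lower in both treated libraries than in both controls, and Vegfc is at 0.

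Among the receptors, Flt1 rose. It read 461 and 449 CPM in control and 598 and 589 CPM in conditioned medium, on 6568 to 10619 counts. The gap between groups was far wider than the spread within either, with means of 455 ± 8.45 and 593 ± 6.36 CPM (SD, n = 2). The log2 fold change was 0.38 ± 0.04 (95% interval 0.29 to 0.47; edgeR adjusted p = 2.40e-06), and it stayed between 0.36 and 0.40 when 1 library was left out. Flt1 lies on chromosome 5, 147561604 to 147726438, on the minus strand of mm10.

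Kdr read 442 and 437 CPM in control and 393 and 396 CPM in conditioned medium. Both treated libraries were lower than both controls, by a small margin that exceeded the spread within the groups. The log2 fold change was -0.16 ± 0.04 (95% interval -0.24 to -0.07; edgeR adjusted p = 0.0123). The call was lost without either conditioned medium library (edgeR adjusted p = 0.239 without replicate 1, the highest of its alternatives, and 0.215 without replicate 2, the lowest being 9.89e-05) and in DESeq2 (adjusted p = 0.0505), with log2 fold changes of -0.16 to -0.14 over all alternatives. Kdr lies on chromosome 5, 75932827 to 75979072, on the minus strand of mm10.

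Flt4 read 348 and 358 CPM in control and 363 and 368 CPM in conditioned medium. The treated libraries were both above the controls, by a gap smaller than that between the controls themselves. Its log2 fold change was 0.05 ± 0.04 (95% interval -0.04 to 0.14; edgeR adjusted p = 0.480), so a change of more than 0.14 in either direction lies outside the interval. Flt4 was the sole tested member not called, and it was not called in any alternative.

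**Figure D2:**
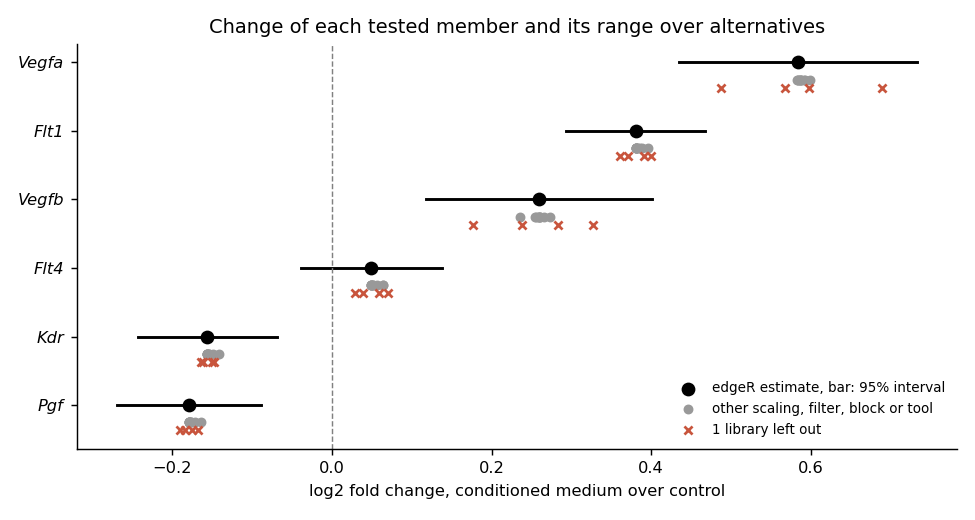
Log2 fold change of conditioned medium over control for the 6 tested members, with black points for the edgeR estimate and bars for the 95% interval, grey points for other scalings, filters, block and tools, and crosses for fits without 1 library. Vegfa, Flt1 and Vegfb lie above 0, Kdr and Pgf below, and the interval of Flt4 spans 0; no alternative moves a gene across 0.

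Ratios between members within a library do not depend on how libraries are scaled. The ratio of Flt1 to Kdr counts was 1.04 and 1.03 in the control libraries and 1.52 and 1.49 in the conditioned medium libraries. The balance of the receptors shifted 1.45-fold toward Flt1, with a difference in log2 ratio of 0.54 and SDs within groups of 0.02 in each (exact permutation test over libraries, two-sided, p = 0.33, the smallest that 2 against 2 allows). Leaving out 1 library gave 0.52 to 0.55. The ratio of Flt4 to Kdr went from 0.787 and 0.819 to 0.923 and 0.928.

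The ratio of Vegfa to Vegfb counts was 0.898 and 0.757 in control and 1.08 and 0.997 in conditioned medium, a difference in log2 ratio of 0.34 (exact permutation test, two-sided, p = 0.33, again the smallest possible). It was 0.21 without control replicate 2 and 0.46 without control replicate 1. Vegfa also rose against its receptor: its counts were 0.0847 and 0.0745 of those of Kdr in control and 0.132 and 0.134 in conditioned medium, 1.67-fold higher. Against Flt1 the same ratio went from 0.0812 and 0.0725 to 0.0869 and 0.0900, 1.15-fold higher. Pgf fell against Flt1, its receptor, from 0.501 and 0.511 to 0.344 and 0.343, and from 6.17 and 7.05 to 3.95 and 3.81 against Vegfa.

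**Figure D3:**
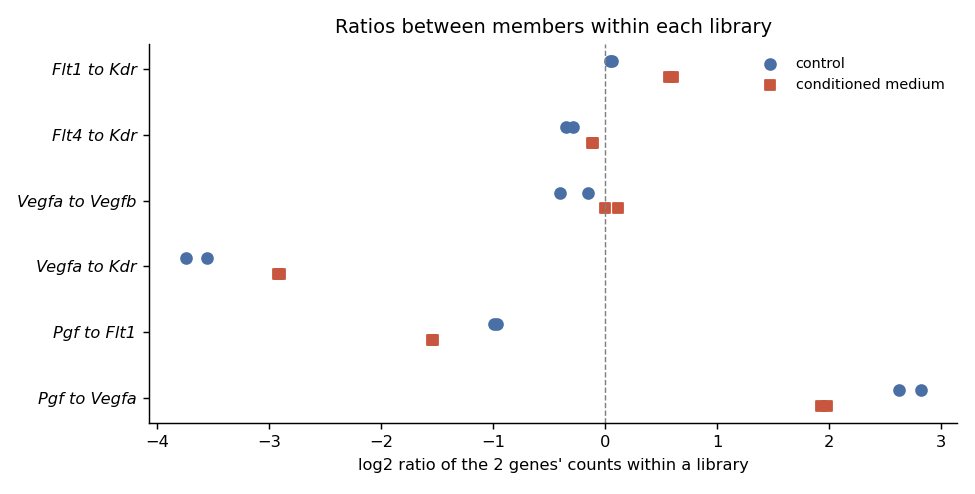
Log2 ratio of the counts of pairs of members within each library (horizontal axis), for 2 control libraries (circles) and 2 conditioned medium libraries (squares). The groups are apart in each of the 6 pairs drawn, with Flt1 to Kdr moving from 0.06 and 0.04 to 0.60 and 0.57. The pairs share genes, so they are not separate results. Pairs other than Flt1 to Kdr and Vegfa to Vegfb were chosen after their values were seen.

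To compare levels between genes, CPM were divided by the length of the union of a gene's GENCODE M21 exons, in kilobases. On this scale the order of mean levels in control was Pgf (79.4 ± 0.345 CPM per kilobase; SD, n = 2), Kdr (48.7 ± 0.388), Flt4 (42.9 ± 0.865), Flt1 (33.7 ± 0.625), Vegfb (26.4 ± 0.584), Vegfa (8.17 ± 0.805) and Vegfc at 0. All neighbours in this order were apart by more than their spread. In conditioned medium Flt4 (44.3 ± 0.420), Flt1 (43.9 ± 0.471) and Kdr (43.7 ± 0.231 CPM per kilobase) were close together. Flt1 overlapped both of the others, while Flt4 was above Kdr in both libraries, by ratios of 1.01 and 1.02. Pgf stayed highest (70.1 ± 0.848), with Vegfb (31.5 ± 2.31) and Vegfa (12.2 ± 0.171 CPM per kilobase) below the receptors. Among 12144 tested genes with a length, Vegfa went from percentile 59.2 to 70.6, and the receptors lay between percentiles 90.3 and 93.7 in both groups.

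As shares of the summed ligand level per kilobase, Vegfa made up 7.64% and 6.69% in control and 10.8% in both treated libraries, and Pgf 69.6% and 69.7% against 62.8% and 60.5%. The sum itself was 114.4 and 113.6 CPM per kilobase in control and 112.7 and 115.0 in conditioned medium, overlapping groups, so the mix of ligand transcripts shifted while their sum on this scale did not separate the groups. Among the receptors, Kdr went from 39.0% and 38.7% to 33.0% and 33.2%, and Flt1 from 27.3% and 26.6% to 33.6% and 33.0%. Their sum was 125.4 and 125.2 CPM per kilobase in control and 131.8 and 132.1 in conditioned medium, so it was higher in both treated libraries. These levels, and the closeness of the receptors, depend on the lengths taken. With the exons of GENCODE's basic transcripts, another length chosen after the data were seen, Kdr (66.6), Flt4 (58.4) and Flt1 (54.1 CPM per kilobase) were apart in conditioned medium. With coding bases alone, a length chosen after the data were seen, Flt1 was above Kdr in both groups (111 against 109 CPM per kilobase in control and 145 against 97.8 in conditioned medium), and the ligand sum fell by 4.98%. Changes between groups of a single gene do not depend on its length.

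**Figure D4:**
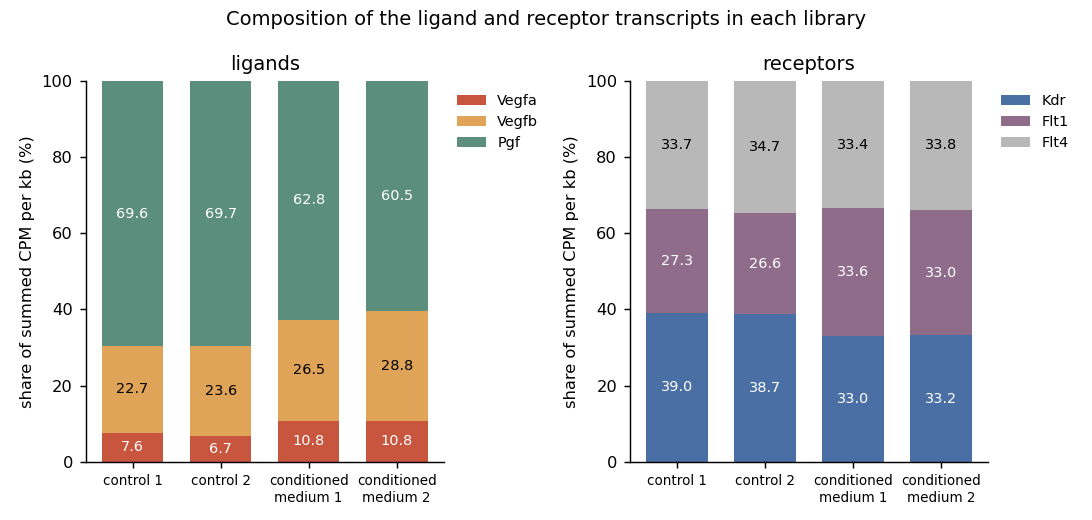
Share of each gene in the summed CPM per kilobase of exon (vertical axis, percent) of the ligands (left) and the receptors (right) in each of the 4 libraries. Pgf takes 69.6% and 69.7% of the ligand level in control and 62.8% and 60.5% in conditioned medium, and Kdr and Flt1 take 33.0% to 33.6% of the receptor level in conditioned medium.

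The genes whose pattern over the 4 libraries was nearest to each called member were found by the root mean square difference of centred log2 CPM, among 10678 genes. For Vegfa they were Ptprq (0.031) and Lgals3 (0.036), and for Flt1 Adipor2 (0.0055) and Ccdc136 (0.0088). For Vegfb they were Ulk1 (0.0055) and Agfg1 (0.0061). For Pgf they were Ehd4 (0.0052) and Slf2 (0.0052), and for Kdr Hnrnpf (0.0025) and Coa8 (0.0043). With 4 libraries and 2 groups, many genes share such a pattern, so the likeness describes these libraries only.

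Other genes of the pathway were read in 5 lists. Among 21 tested coreceptors and genes that move or dephosphorylate the receptors, 4 were called higher and 3 lower. Their median log2 fold change was 0.05, against 0.00 over all genes tested. The share called was 33.3%, against 16.8% of all genes tested (8.53% higher and 8.23% lower). Whether any of the 5 lists differs from that share was not tested. Nrp2, a coreceptor that binds VEGF-C and VEGF-A, read 295.6 and 298 CPM in control and 253 and 251 CPM in conditioned medium. It fell by 0.24 ± 0.04 on the log2 scale (edgeR adjusted p = 5.13e-04). Nrp1, the coreceptor that pairs with KDR, read 40.0 and 38.9 against 42.6 and 40.2 CPM and was not called (log2 fold change 0.07 ± 0.07, 95% interval -0.08 to 0.21; edgeR adjusted p = 0.565). Myo6, a motor protein of endocytic vesicles, fell by 0.24 ± 0.06, and Ptpn1, a tyrosine phosphatase that acts on KDR, rose by 0.22 ± 0.06. DESeq2 called 3 of the 21 genes of this list and 918 of all 13897 genes tested. Without either conditioned medium library fewer were called than with all libraries, in this list and over all genes. Without control replicate 2 more were called in both. Myo6 lost its call without either conditioned medium library, Ptpn1 without replicate 1 and Nrp2 without replicate 2 of that group, and DESeq2 did not call Myo6 or Ptpn1.

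Of 37 tested genes that relay the receptor signal, 10 were called higher and 2 lower, with a median log2 fold change of 0.04. The share called was 32.4%, against 16.8% of all genes tested. Prkcb, a protein kinase C, rose by 1.65 ± 0.20 on the log2 scale, on 36 and 36 counts in control and 96 and 151 in conditioned medium. Sphk1, a sphingosine kinase, rose by 1.09 ± 0.25 on 27 and 23 against 54 and 62 counts, and Shb, an adaptor that binds KDR, by 0.40 ± 0.11. Nos3, the endothelial nitric oxide synthase, rose from 442 and 469.5 to 583 and 577 CPM (log2 fold change 0.35 ± 0.04; edgeR adjusted p = 1.13e-05). DESeq2 called 3 of the 37 genes of this list and 918 of all 13897 genes tested. Without either conditioned medium library fewer were called than with all libraries, in this list and over all genes. Sphk1 and Shb lost their calls without either of these libraries, and Shb also without control replicate 1 (log2 fold change 0.32). DESeq2 called neither.

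Of 31 tested genes known to respond to VEGF or to mark sprouting endothelium, 7 were called higher and 9 lower. Their median log2 fold change was -0.12. The share called was 51.6%, against 16.8% of all genes tested. Those that rose included Stc1, a secreted glycoprotein (1.41 ± 0.17), Mmp10, a matrix protease on 10 to 41 counts (1.28 ± 0.36), and Unc5b, a netrin receptor (0.42 ± 0.06). Among those that fell, Angpt2, a ligand of the TIE2 receptor, went from 146 and 150.2 to 88.1 and 78.7 CPM (log2 fold change -0.83 ± 0.05; edgeR adjusted p = 3.00e-09). Esm1, a secreted proteoglycan, was at -0.31 ± 0.06, Dll4, a Notch ligand, at -0.22 ± 0.05, and Apln, a peptide ligand, at -0.21 ± 0.04. Larger falls than that of Esm1 were also called for Ccn2 (-0.72 ± 0.04), Hlx (-0.52 ± 0.07) and Egr1 (-0.34 ± 0.09). Adamts1 was called higher (0.41 ± 0.06), so the list went both ways. DESeq2 called 9 of the 31 genes of this list and 918 of all 13897 genes tested. Without either conditioned medium library fewer were called than with all libraries, in this list and over all genes. Dll4, Apln and Mmp10 lost their calls without either of these libraries, Mmp10 also without control replicate 2, and Esm1 without replicate 2 of conditioned medium. DESeq2 did not call Dll4 and gave Mmp10 no adjusted p.

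Of 15 genes of the lymphatic axis of VEGF-C, 8 were tested, and 3 were called, all of them higher. The share called was 37.5%, against 16.8% of all genes tested. Pdpn, a lymphatic surface glycoprotein, rose by 0.73 ± 0.13 from 8.87 and 7.66 to 13.3 and 14.1 CPM, and the transcription factor genes Gata2 and Nr2f2 rose by 0.29 ± 0.05 each. The other 5 tested genes were not called. These were Lyve1 (log2 fold change 0.01 ± 0.04), Sox18 (-0.12 ± 0.09), Ccbe1 (0.18 ± 0.12), Adamts14 (0.31 ± 0.17) and Reln (0.12 ± 0.43). Prox1 and Foxc2, lymphatic transcription factors, were below the filter. Of 20 tested regulators of transcription, Gata2 among them again, 4 were called higher and 3 lower, a share of 35%. Mef2c fell by 0.40 ± 0.05 and Ets1 by 0.29 ± 0.04, both factors of endothelial enhancers, and the ETS factor Fli1 was at -0.18 ± 0.05. The ETS factors of the list did not move together. Elk3 was called higher (0.19 ± 0.05), and Erg (0.07 ± 0.05) and Ets2 (0.01 ± 0.04) were not called. Hif1a, the oxygen-regulated subunit whose protein drives Vegfa in hypoxia, went from 602 and 590.2 to 695 and 706 CPM (log2 fold change 0.23 ± 0.04; edgeR adjusted p = 4.59e-04), and its relative Epas1 was not called (-0.12 ± 0.05; edgeR adjusted p = 0.142). DESeq2 called 5 of the 20 regulators and 918 of all 13897 genes tested. Without either conditioned medium library fewer were called than with all libraries, among the regulators and over all genes. Hif1a and Fli1 lost their calls without either of these libraries, Fli1 also in DESeq2.

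**Figure D5:**
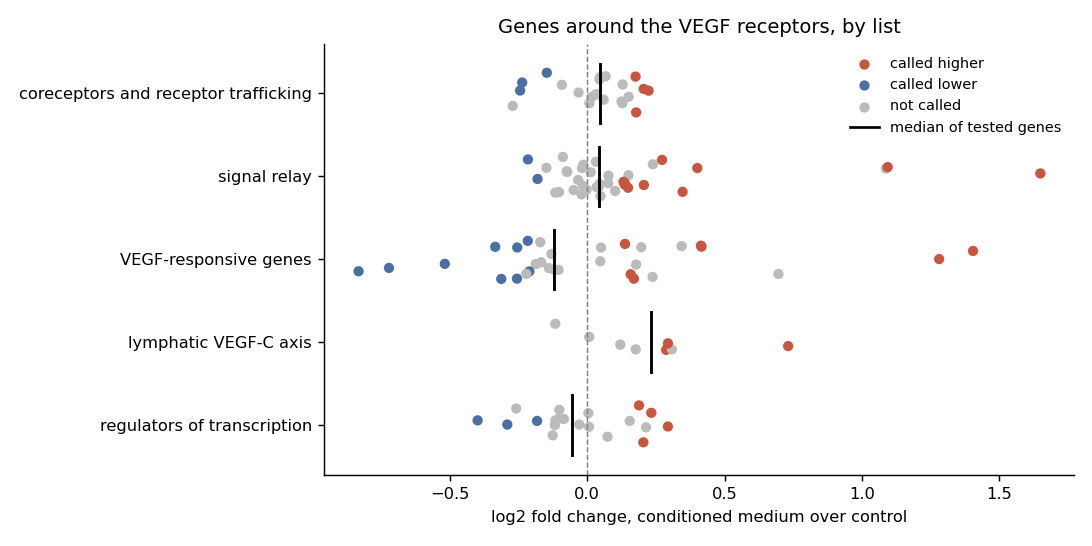
Log2 fold change of conditioned medium over control (horizontal axis) for each tested gene of the 5 lists, jittered vertically, with red points called higher, blue called lower and grey not called, and a black bar at each list's median. Calls in both directions are seen in 4 lists, and in the lymphatic list the 3 called genes are higher.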

How the data were processed

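Per the labels, total RNA went into TruSeq RNA libraries. Whether these libraries recorded strand was not checked. The deposited table holds unscaled counts per Entrez gene, per the labels and the values. Tools listed in the submitters' processing notes are Subread 1.4.6-p1, featureCounts and STAR 2.5.2b, with mm10 as build; settings are not given there. RefSeq (GRCm38.p6) named 25275 of 27179 rows; unnamed rows, 6.31% of the counts, stayed in the fit. No GENCODE gene overlaps a member. Genes were kept by filterByExpr (minimum 10, total 15), libraries were scaled by TMM (factors 0.987 to 1.01), and edgeR 4.0.16 (R 4.3.3) gave two-sided quasi-likelihood tests with 2 residual degrees of freedom and Benjamini-Hochberg adjustment over all genes tested. SEs were derived from the fold change and its F statistic. The chi-square per degree of freedom was taken over well-counted genes (mean of 100 or more). It was 5.64 between the controls and 1.58 between the treated libraries. It used library totals without the TMM factors, which were 0.987 and 1.008 in control and 1.003 and 1.002 in conditioned medium. Each library was counted as a replicate, as the series labels it. The chi-square values cannot show whether the libraries of a pair came from separate cultures. The procedure was also run on simulated counts, with changes about as large as that of Vegfa or larger. That run does not bear on the smaller changes of the other members.

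Members, lists and tests were chosen with earlier results of these data known. Named genes are the members, the 3 called genes with the largest change in each list, and the 2 genes of 5 CPM or more nearest to each called member. Nrp1, Vegfd, Nos3, Hif1a, Epas1, Dll4, Esm1, Apln, Unc5b, Fli1 and Foxc2 were named after their values were seen. So were ratios other than Flt1 to Kdr and Vegfa to Vegfb. Ccn2, Hlx, Egr1, Adamts1, Elk3, Erg, Ets2, Lyve1, Sox18, Ccbe1, Adamts14 and Reln were also named after their values were seen. The values of these genes in the alternatives were not read. Alternatives were scaling by RLE, upper quartile or library total; no filter, or 1 CPM in 2 libraries; thinned counts; a robust spread; a replicate block; DESeq2 1.42.0; limma-voom (limma 3.58.1); and fits without 1 library, which borrow the spread of the group that still has a pair.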

Additional observations from a re-analysis of the deposited data

How the results depend on the processing

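The direction of each of the 6 tested members was the same in all 14 alternatives, and Vegfc could not be fitted in any. DESeq2 called 918 of all genes against 2330, and 2 members, leaving Vegfb (log2 fold change 0.26), Pgf (-0.18) and Kdr (-0.16) uncalled. In DESeq2 the coreceptor and trafficking list had 3 calls, the relay list 3 and the VEGF-responsive list 9. Without 1 library, the genes called ranged from 569 to 3107 and the members called from 2 to 5, with log2 fold changes of 0.18 to 0.33 for Vegfb, -0.19 to -0.17 for Pgf and -0.16 to -0.15 for Kdr. The lowest counts came without a conditioned medium library, where the spread comes from the control pair alone. The same fits gave 1 to 11 calls in the coreceptor list, 2 to 12 in the relay list, 6 to 18 in the VEGF-responsive list and 3 to 9 among the regulators of transcription. Vegfd, on 7 to 12 counts, ranged from -0.73 to 0.17.

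The replicate numbers share no stated origin, and deviations of same-numbered libraries had a correlation of -0.04. With the replicate block 2671 genes and 5 members were called, and no member's call changed. The causes of the other differences were not tested.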
